A study of Rattus norvegicus with 20 samples.

Results

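The enzymes that carry carbon into fatty acids and fatty acids into triglyceride were followed in rat liver as 10 genes, Acaca, Acly, Fasn, Me1, Srebf1, Gpam, Agpat2, Lpin1, Dgat1 and Dgat2, out of 14217 genes measured. They are represented by every probe set annotated to those symbols, 17 of the 31042 that were not controls. All 10 genes were measured, 7 of them by 2 probe sets. Male Harlan Sprague Dawley rats were gavaged with tricresyl phosphate (TCP), an organophosphate ester used as a plasticizer and lubricant additive, in corn oil. Dosing ran on 4 consecutive days at 62.3, 124.5, 248.6, 497.3 or 994.6 mg/kg body weight, with 3 rats per dose, and 5 control rats received corn oil alone. The left liver lobe was sampled after dosing, and its RNA was hybridised to 1 Affymetrix array per rat. The sources used here do not give the rats' age. A piece of lobe holds many cell types, and fewer cells of a type cannot be told apart from less RNA per cell.

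Hepatocytes make fatty acids from citrate that leaves the mitochondrion. ATP citrate lyase (Acly) splits it to acetyl-CoA, acetyl-CoA carboxylase (Acaca) makes malonyl-CoA in the committed step, fatty acid synthase (Fasn) builds palmitate, and malic enzyme (Me1) supplies NADPH. SREBP-1, the product of Srebf1, is a membrane-bound transcription factor that raises the transcription of these genes after feeding and insulin. Triglyceride is then assembled on glycerol phosphate by acyl transfer (Gpam, Agpat2), removal of the phosphate (Lpin1) and a last acyl transfer (Dgat1 or Dgat2).

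The hepatocyte transcripts Alb, Ttr and Apoc3 lay at 14.7 or above on the log2 scale in all 20 arrays. The measured adipocyte transcripts were Adipoq and Lep, between 4.66 and 5.31, and Plin1, Fabp4 and Cfd, which reached 6.42, 7.10 and 8.88. Replicate 1 of 994.6 mg/kg stood apart from the other arrays, at 37.1 on the first principal component against -14.15 to 9.14 for the rest, so the members' changes at that dose are given with and without it. GAPDH is a control transcript with probe sets at both ends, and its 3' minus 5' value is a sign of RNA integrity. This was 1.13 to 1.56 on the log2 scale in control and 0.612 to 0.836 at 994.6 mg/kg. It was 0.705 to 0.896 at 497.3, 0.859 to 1.10 at 248.6 and 0.867 to 1.11 at 62.3 mg/kg. At 124.5 mg/kg 1 array read 2.58, and apart from it every dosed array lay below all controls. For beta-actin the group mean was 2.50 in control and 1.977 to 2.225 in the dosed groups. Its single arrays ran from 2.292 to 2.899 in control, and up to 2.971 at 124.5 and 2.496 at 248.6 mg/kg, so those groups overlapped. All arrays of 62.3, 497.3 and 994.6 mg/kg lay below all controls. These 3' minus 5' values thus differed with dosing, and the part of RNA integrity in the changes cannot be told apart from that of dose.

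Transcripts of other cell types moved at the same doses. Of 4 red blood cell transcripts all 4 were lower at 994.6 mg/kg, 3 of them also without replicate 1, and all 4 had a falling trend. Their summed linear level was 2395 to 7654 at 994.6 mg/kg and 7805 to 10401 at 497.3 mg/kg, against 13123 to 15183 in control. Of 4 bile duct transcripts 1, Epcam, was higher at 994.6 mg/kg and at 497.3 mg/kg (0.86 ± 0.14, limma adjusted p = 0.00476) and had a rising trend. Their summed linear level was 1118 to 1257 at 994.6 mg/kg and 1136 to 1793 at 497.3 mg/kg, against 692 to 896 in control. Epcam was the brightest of the 4 in every array and weighs most in that sum. At 994.6 mg/kg Krt19, Spp1 and Krt7 differed by 0.24, 0.26 and -0.01, and none of them passed. Of 7 hepatocyte transcripts none passed at 994.6 mg/kg, with an unadjusted p under 0.05 for Cps1 (-0.21) and Apoa1 (-0.22), and Cps1 had a falling trend (limma adjusted p = 0.0327). In the lists for adipocytes, macrophages, stellate cells, endothelium, lymphocytes and neutrophils no gene had even an unadjusted p under 0.05 at 994.6 mg/kg. The part of these cell types in the results below was not tested, and values with the GAPDH difference as a covariate are given where they end a call.

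At 994.6 mg/kg 3 of the 10 genes changed. Acaca rose by 0.72 ± 0.20 on the log2 scale, 1.64-fold, while Agpat2 fell by 0.43 ± 0.10 and Dgat2 by 0.53 ± 0.10, to 0.742 and 0.691 of the control level. The other 7 genes did not pass the test, a limma adjusted p under 0.05 over all genes. So 1 of 10 members rose and 2 fell, against 2.5% of all genes that rose and 1.96% that fell in the same comparison, 4.47% in all. The members were chosen with earlier results of these data known, so such shares, here and below, are descriptions and no test of the pathway. With the GAPDH covariate 346 genes rose and 104 fell, against 356 and 279 without it. An unadjusted p under 0.05 was reached by 7 of 10 members and by 2641 of the 14217 genes. Without replicate 1 of that dose 1 of 10 members was called, Dgat2, against 1.22% of all genes. The median change of the 10 with all arrays was -0.11, beside -0.01 for all genes. Over the dose steps 1 of 10 rose (Acaca) and 2 fell (Lpin1 and Dgat2), against 3.9% of all genes with a rising and 2.57% with a falling trend, 6.47% in all. A dose step is a move to the next dose, with control as step 0.

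**Figure D1:**
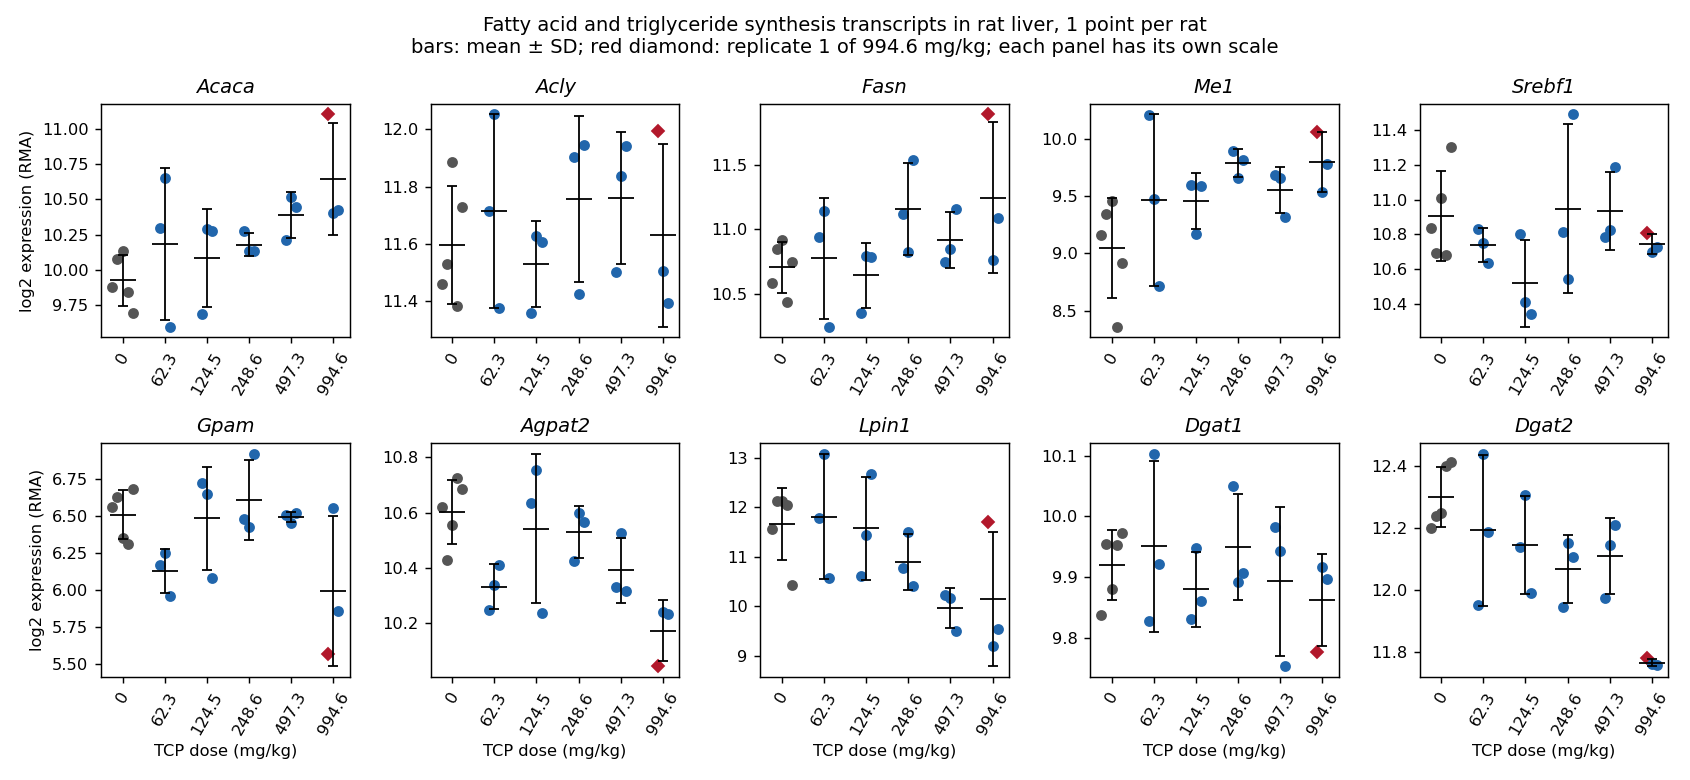
Log2 expression of the 10 genes (vertical axis, a separate scale in each panel) by TCP dose in mg/kg (horizontal axis), with 1 point per rat and bars for the mean and SD. Dgat2 lies at 11.76 to 11.78 in all 3 rats of 994.6 mg/kg, below every other array, and replicate 1 of that dose, the red diamond, has the highest Acaca and Fasn values.

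**Figure D2:**
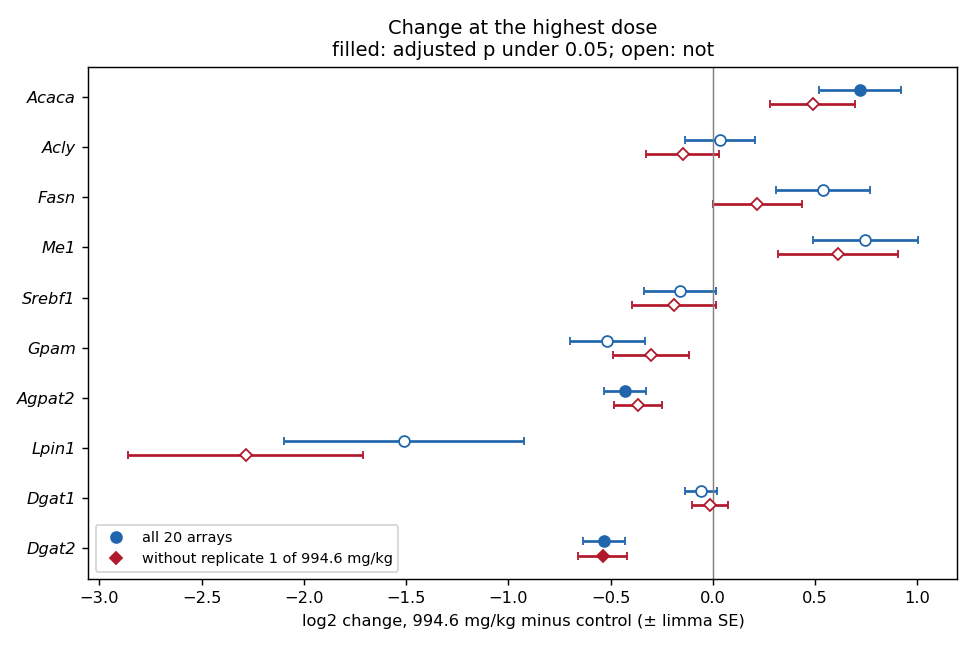
Log2 change at 994.6 mg/kg relative to control (horizontal axis) for each gene, with limma standard errors as bars. Circles use all 20 arrays and diamonds leave out replicate 1 of 994.6 mg/kg; filled symbols have an adjusted p under 0.05. Dgat2 is filled in both fits, and Acaca and Agpat2 only with all arrays.

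Acaca, the committed step of fatty acid synthesis, read 11.10, 10.41 and 10.42 on the log2 scale in the 3 rats of 994.6 mg/kg, against 9.88, 10.08, 10.13, 9.85 and 9.69 in control rats. All 3 treated rats lay above all 5 controls, and so did all 3 rats of 497.3 mg/kg, at 10.21 to 10.52. How many of all genes separated from control in this way was not counted. Here and for the genes below, such separation is a description and no test. The rise of 0.72 at 994.6 mg/kg had a limma adjusted p of 0.0477, and the difference of 0.47 ± 0.20 at 497.3 mg/kg had 0.344. Along the doses Acaca rose by 0.12 ± 0.03 per dose step (limma adjusted p = 0.026). Its other probe set, dimmer on the array, read 6.17, 5.70 and 5.55 at 994.6 mg/kg, against 5.17 to 5.42 in control, a difference of 0.50 ± 0.17 (limma adjusted p = 0.135 over all probe sets). Without replicate 1 of 994.6 mg/kg the difference was 0.49 ± 0.21 (limma adjusted p = 0.333), and the call also ended when any 1 control array was left out. It was lost as well with robust eBayes (limma adjusted p = 0.0516) and with each probe set tested on its own (limma adjusted p = 0.0636), so 9 of 19 alternative settings kept it. The trend was not called without control replicate 1 or 5 or without replicate 1 of 994.6 mg/kg (limma adjusted p = 0.0513, 0.0606 and 0.0936).

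Me1, the NADPH-producing malic enzyme, read 10.06, 9.54 and 9.78 at 994.6 mg/kg, against 9.16, 9.34, 9.46, 8.36 and 8.92 in control. All 3 treated values were above all controls, and the same held at 248.6 mg/kg, with 9.65 to 9.89. The difference of 0.74 ± 0.26 at 994.6 mg/kg did not pass the test (limma adjusted p = 0.107), and its 95% interval ran from 0.20 to 1.28. Without replicate 1 it was 0.61 ± 0.29 (limma adjusted p = 0.42). The slope was 0.13 ± 0.04 per dose step (limma adjusted p = 0.0635), which passed in 3 of 32 alternative settings, among them without replicate 1 of 62.3 or replicate 3 of 497.3 mg/kg (limma adjusted p = 0.014 and 0.0461). At 62.3 mg/kg the rats spread from 8.71 to 10.21, wider than at any dose above it. The other probe set of Me1 read 9.23 to 9.63 at 994.6 mg/kg, against 8.55 to 9.12 in control. The difference there was 0.59 ± 0.24 (limma adjusted p = 0.239 over all probe sets). On that probe set all rats of 248.6, 497.3 and 994.6 mg/kg lay above all controls.

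Fasn, which builds palmitate, read 11.89, 10.76 and 11.09 at 994.6 mg/kg, against 10.59, 10.85, 10.92, 10.44 and 10.74 in control. Of the treated rats, replicates 1 and 3 lay above all controls and replicate 2 lay among them. The difference was 0.54 ± 0.23 (limma adjusted p = 0.201) with all arrays and 0.22 ± 0.22 without replicate 1 (limma adjusted p = 0.799). Its other probe set read 10.02, 8.78 and 9.17 at 994.6 mg/kg, against 8.44 to 9.36 in control, so only replicate 1 lay above all controls. The difference there was 0.40 ± 0.30 (limma adjusted p = 0.595 over all probe sets).

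Acly, which makes cytosolic acetyl-CoA, read 11.99, 11.50 and 11.39 at 994.6 mg/kg, against 11.46, 11.53, 11.88, 11.38 and 11.73 in control, so the groups overlapped. The difference was 0.03 ± 0.17, with a 95% interval from -0.32 to 0.39, and it was -0.15 without replicate 1. Within an array, Acaca minus Acly was 0.68 higher on average at 994.6 mg/kg than in control, and 0.64 higher without replicate 1. That pair, like Dgat2 and Dgat1 below, was chosen after the values were seen, so the difference is a description with no test.

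Srebf1, the transcription factor above these enzymes, read 10.81, 10.70 and 10.73 at 994.6 mg/kg, against 10.84, 10.69, 11.01, 10.68 and 11.30 in control. Treated and control values overlapped, and the difference was -0.16 ± 0.18 with a 95% interval from -0.53 to 0.21, or -0.19 ± 0.21 without replicate 1. The slope per dose step was -0.0027 ± 0.03 (limma adjusted p = 0.979), and that of its other probe set 0.0108 ± 0.03. The lowest group mean was 10.52 at 124.5 mg/kg and the highest 10.95 at 248.6 mg/kg, where the 3 rats ran from 10.54 to 11.49. The array measures the transcript, not the cleaved nuclear protein that acts on the targets.

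Whether rats with more Srebf1 transcript than others of their dose also had more of its known targets was asked over the 20 arrays, with each value taken as the deviation from its dose group's mean. Pearson's r was 0.47 with Acly (permutation p = 0.0603), 0.42 with Gpam (permutation p = 0.0733), 0.40 with Fasn (permutation p = 0.0642), 0.17 with Me1 (permutation p = 0.387) and -0.11 with Acaca (permutation p = 0.533). Spearman's rho was 0.50 with Acly (permutation p = 0.0309), 0.48 with Gpam (permutation p = 0.0549), 0.45 with Fasn (permutation p = 0.0468), 0.16 with Me1 (permutation p = 0.504) and -0.08 with Acaca (permutation p = 0.703). Adjusted over the 5 pairs, none passed: the lowest was 0.122 for r and 0.0915 for rho. Without the 2 rats whose Srebf1 deviated most, replicate 3 of 248.6 mg/kg and control replicate 5, r was 0.42 with Acly, 0.34 with Me1, 0.28 with Fasn, 0.17 with Gpam and 0.05 with Acaca. Leaving those rats out also narrows the range of Srebf1. Without replicate 1 of 994.6 mg/kg r was 0.54 with Gpam (permutation p = 0.0297), 0.49 with Acly and 0.44 with Fasn. It was 0.16 with Me1 and -0.17 with Acaca there, and none passed after adjustment (lowest adjusted permutation p = 0.148).

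**Figure D3:**
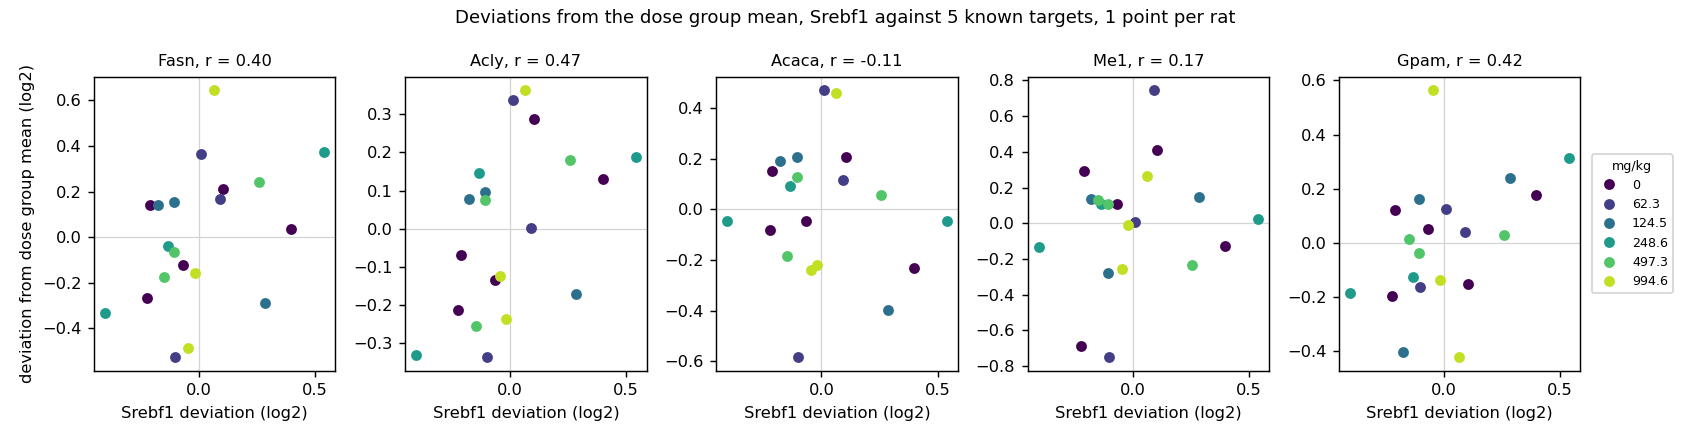
Deviation of each rat's Srebf1 value from its dose group mean (horizontal axis, log2) against the same deviation of 5 known target genes (vertical axes, log2), coloured by dose in mg/kg. The correlation is highest for Acly (r = 0.47) and lowest for Acaca (r = -0.11), and no pair passed the permutation test after adjustment.

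Gpam, the mitochondrial glycerol-3-phosphate acyltransferase, takes the first step toward triglyceride. It read 5.57, 6.55 and 5.85 at 994.6 mg/kg, against 6.56, 6.63, 6.35, 6.31 and 6.69 in control. Replicates 1 and 3 lay below all controls and replicate 2 lay among them. The difference was -0.52 ± 0.18 (limma adjusted p = 0.115), -0.30 without replicate 1 and -0.80 without replicate 2, where it passed the test (limma adjusted p = 0.0106). With array weights it was -0.0570 (limma adjusted p = 0.802). At 62.3 mg/kg all 3 rats also lay below all controls, at 5.96 to 6.25, while the doses between did not. Its other probe set read 5.60, 6.15 and 6.23 at 994.6 mg/kg, against 5.90 to 6.50 in control, a difference of -0.18 ± 0.14.

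Agpat2, which adds the next acyl chain to give phosphatidic acid, read 10.04, 10.24 and 10.23 at 994.6 mg/kg, against 10.62, 10.43, 10.55, 10.73 and 10.69 in control. All 3 treated rats lay below all 5 controls, and so did all 3 rats of 62.3 mg/kg, at 10.25 to 10.41. The fall at 994.6 mg/kg had a limma adjusted p of 0.0237, and the slope of -0.06 ± 0.02 per dose step had 0.0853, or 0.0499 without replicate 1 of 62.3 mg/kg and 0.0359 with dose in mg/kg on a linear scale. Without replicate 1 of 994.6 mg/kg the difference was -0.37 ± 0.12 (limma adjusted p = 0.164). Leaving out control replicate 1, 4 or 5 ended the call too, and so did the GAPDH covariate (-0.33, limma adjusted p = 0.109).

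Lpin1, the phosphatidate phosphatase that yields diacylglycerol and also a transcriptional coactivator, had the widest range of the 10 genes, 3.89 on the log2 scale or 14.8-fold between its extreme arrays. By dose it averaged 11.66 ± 0.72 in control (SD, n = 5), 11.81 ± 1.26 at 62.3, 11.57 ± 1.03 at 124.5, 10.90 ± 0.56 at 248.6, 9.97 ± 0.40 at 497.3 and 10.15 ± 1.36 at 994.6 mg/kg (SD, n = 3 each). It fell by 0.37 ± 0.10 per dose step (limma adjusted p = 0.0252), and its other probe set fell by 0.29 ± 0.08 per step (limma adjusted p = 0.0425 over all probe sets).

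At 497.3 mg/kg Lpin1 read 10.23, 10.17 and 9.50, against 11.55, 12.12, 12.13, 12.05 and 10.44 in control, with no overlap. The difference of -1.69 ± 0.59 did not pass the test (limma adjusted p = 0.214), and passed with only those groups in the fit (limma adjusted p = 0.0349). At 994.6 mg/kg it read 11.70, 9.19 and 9.55, so replicate 1 lay among the controls and the other 2 rats below all of them. The difference there was -1.51 ± 0.59 (limma adjusted p = 0.16), and -2.29 ± 0.58 without replicate 1 (limma adjusted p = 0.0603). The trend was steeper without that array, at -0.45 per step (limma adjusted p = 0.00709). It was not called without replicate 2 or 3 of 994.6 mg/kg (limma adjusted p = 0.0713 and 0.0589), with the GAPDH covariate (limma adjusted p = 0.0707) or among treated rats alone (limma adjusted p = 0.159).

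Dgat2, the main enzyme for the last step from newly made fatty acids, read 11.78, 11.76 and 11.76 at 994.6 mg/kg, against 12.20, 12.24, 12.25, 12.40 and 12.41 in control. On this, its brighter probe set, the 3 treated rats were nearly equal and lay below all of the other 17 arrays, the lowest of which read 11.94. The fall of 0.53 had a limma adjusted p of 0.00499, and all 19 alternative settings kept the call, with changes from -0.56 to -0.44 and adjusted p from 3.88e-05 to 0.0481. Without replicate 1 the change was -0.54 ± 0.12 (limma adjusted p = 0.0269). Its other probe set fell by 0.50 ± 0.09 (limma adjusted p = 0.00723 over all probe sets). There the same rats were less alike, at 10.43, 10.28 and 10.21. Between the highest doses Dgat2 differed by -0.34 ± 0.11 (limma adjusted p = 0.485), and at 497.3 mg/kg it differed from control by -0.19 ± 0.10 (limma adjusted p = 0.477). The slope over all doses was -0.08 ± 0.02 per step (limma adjusted p = 0.00576), and -0.09 ± 0.03 among treated rats alone (limma adjusted p = 0.209).

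Dgat1 catalyses the same reaction as Dgat2 and is unrelated to it in sequence. It read 9.78, 9.92 and 9.90 at 994.6 mg/kg, against 9.84, 9.95, 9.88, 9.95 and 9.97 in control, and the values overlapped. The difference was -0.06 ± 0.08, with a 95% interval from -0.22 to 0.11, or -0.01 ± 0.09 without replicate 1. Within an array, Dgat2 minus Dgat1 was lower at 994.6 mg/kg than in control by a mean log2 difference of -0.48, and of -0.53 without replicate 1, again with no test.

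**Figure D4:**
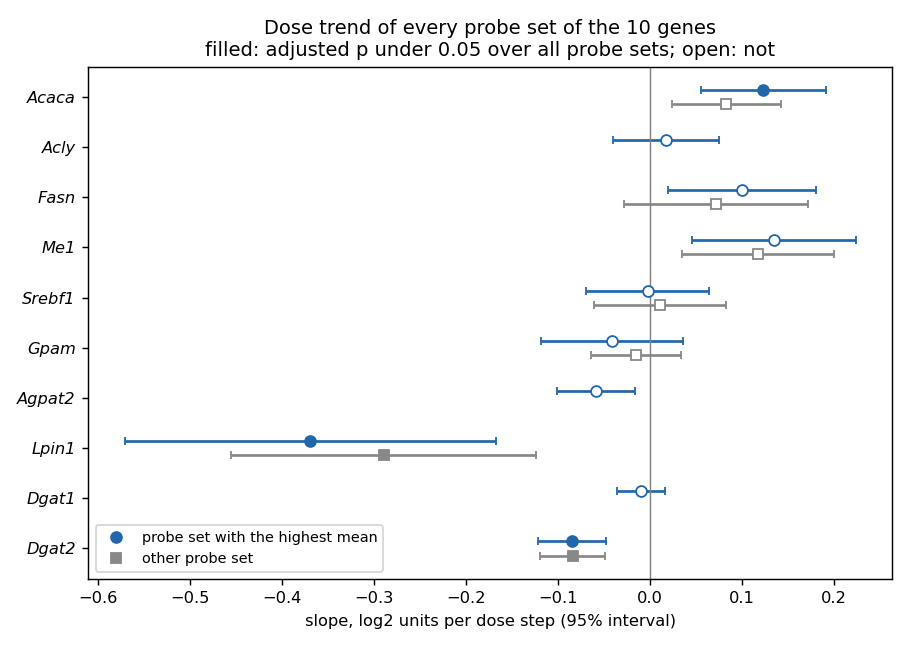
Slope of the log2 value per dose step (horizontal axis) for each of the 17 probe sets, with 95% intervals, from the fit over all probe sets. Circles are the brighter probe set of a gene and squares the other; filled symbols have an adjusted p under 0.05. Both probe sets of Lpin1 and of Dgat2 are filled below 0, and 1 of the 2 of Acaca above 0.

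Where a gene had 2 probe sets, both had the same sign at 994.6 mg/kg in 7 of 7 genes and at 497.3 mg/kg in 7 of 7, and they differed by 0.04 to 0.45 at 994.6 mg/kg. At lower doses the signs were the same in 6 of 7 at 248.6 mg/kg, the exception being Gpam, and in 7 of 7 at 124.5 mg/kg. At 62.3 mg/kg they were the same in 5 of 7, the exceptions being Dgat2 and Srebf1. In the trend both had the same sign in 6 of 7, the exception being Srebf1. With every probe set tested on its own, 3 of the 17 were called at 994.6 mg/kg, against 2.6% of all probe sets, and 5 of the 17 in the trend, against 3.81%. At the doses up to 497.3 mg/kg no member passed the test against control. An unadjusted p under 0.05 was reached at 62.3 mg/kg by Gpam and Agpat2, at 124.5 mg/kg by Srebf1, at 248.6 mg/kg by Me1 and Dgat2, and at 497.3 mg/kg by Acaca and Lpin1. Few genes passed there at all, from 0% at 62.3 and 0.00703% at 124.5 to 0.0563% at 248.6 and 0.732% at 497.3 mg/kg. Between 994.6 and 497.3 mg/kg no member passed, with 0.0211% of all genes called and an unadjusted p under 0.05 for Gpam and Dgat2. Among the 15 treated rats alone 0 of 10 members had a called trend, where 0.218% of all genes did, and Acaca, Lpin1 and Dgat2 had an unadjusted p under 0.05.

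No RefSeq window on GRCr8 was matched for Acaca, Fasn, Dgat1 or Dgat2, so nothing below covers their promoters. Windows were matched for the other 6 of the 10 genes, 7 windows in all, from 250 bases before to 50 after a transcription start. Those of Lpin1 (chr6:45108893-45109192, minus strand), Agpat2 (chr3:29826108-29826407, minus strand) and Me1 (chr8:96540195-96540494, minus strand) are shown 5′ to 3′, since Lpin1 fell along the doses, Agpat2 fell at the highest dose and Me1 lay above all controls at the highest dose. Capitals mark matches on either strand to CCAAT, the NF-Y box, or GGGCGG, the SP1 GC box.
Lpin1: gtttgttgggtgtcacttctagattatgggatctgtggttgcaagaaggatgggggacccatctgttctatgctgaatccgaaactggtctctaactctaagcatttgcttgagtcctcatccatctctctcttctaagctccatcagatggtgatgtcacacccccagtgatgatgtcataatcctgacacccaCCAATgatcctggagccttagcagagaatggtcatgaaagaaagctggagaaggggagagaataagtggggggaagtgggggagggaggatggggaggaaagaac
Agpat2: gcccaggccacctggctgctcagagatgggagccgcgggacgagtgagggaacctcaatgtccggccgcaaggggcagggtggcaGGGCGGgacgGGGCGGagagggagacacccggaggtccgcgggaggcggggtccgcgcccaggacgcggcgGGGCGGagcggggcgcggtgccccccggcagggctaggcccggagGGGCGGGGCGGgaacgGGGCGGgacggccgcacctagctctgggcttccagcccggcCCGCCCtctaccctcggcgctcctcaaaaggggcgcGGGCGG
Me1: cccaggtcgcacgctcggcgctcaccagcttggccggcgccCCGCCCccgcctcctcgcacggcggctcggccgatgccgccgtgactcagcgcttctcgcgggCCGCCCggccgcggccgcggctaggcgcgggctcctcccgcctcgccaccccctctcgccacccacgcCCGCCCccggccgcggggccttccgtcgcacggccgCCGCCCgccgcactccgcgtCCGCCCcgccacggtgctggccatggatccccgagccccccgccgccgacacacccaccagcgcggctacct
The E-box CACGTG and the sterol regulatory element TCACNCCAC, both of which SREBP proteins bind, had no match in any of the 7 windows, and are found in 6.42% and 1.12% of all 33469 RefSeq windows of this length. CCAAT was in the window of Lpin1, starting at position -55 from the start site, and in neither of the others, against 37.5% of all windows. GGGCGG had 8 matches in the Agpat2 window, a pair of which overlap by 1 base, 5 in that of Me1 and none in that of Lpin1, against 33.1% of all windows with at least 1 match. These matches are descriptions of the letters, and none was tested for binding.

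Other genes of the pathway were taken from lists of parallel enzymes, supply of citrate, NADPH and acyl-CoA, regulators, desaturation and elongation, and lipid storage and secretion. Of 14 measured enzymes of the same or neighbouring reactions, none passed the test at 994.6 mg/kg and 4 had an unadjusted p under 0.05. The largest differences were Agpat3 at -0.35 ± 0.12 (limma adjusted p = 0.104) and the mitochondrial malic enzyme Me3 at 0.34 ± 0.12 (limma adjusted p = 0.102). Of 12 supply genes 1 fell, Acsl1, which activates long-chain fatty acids (-0.31 ± 0.08, limma adjusted p = 0.029), and 3 had an unadjusted p under 0.05. Of 15 regulators, none passed and 4 had an unadjusted p under 0.05. The 4 were Scap (-0.40 ± 0.12), Ppargc1b (-0.37 ± 0.14), Pnpla3 (-0.35 ± 0.15) and Mlxipl (-0.31 ± 0.13), all lower. The largest differences, those of Thrsp and Mid1ip1, were upward and not among them. Thrsp, a lipogenic cofactor, differed by 0.51 ± 0.25 (limma adjusted p = 0.279) and Mid1ip1, which activates acetyl-CoA carboxylase, by 0.41 ± 0.41. Without replicate 1 Thrsp differed by 0.23, Mid1ip1 by 0.35, Agpat3 by -0.30 and Me3 by 0.31.

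Of 10 desaturation and elongation genes 1 fell, the elongase Elovl5 (-0.42 ± 0.10, limma adjusted p = 0.0152), and 5 had an unadjusted p under 0.05. Of 18 storage and secretion genes 1 rose, Abhd5, the activator of the triglyceride lipase Pnpla2 (0.59 ± 0.16, limma adjusted p = 0.0448). In that list 8 genes had an unadjusted p under 0.05, beside 2641 of all 14217 genes. In all, 3 of the 69 measured genes in the 5 lists were called, beside 4.47% of all genes. The median changes of the 5 lists ran from -0.25 to -0.01, beside -0.01 for all genes. Without replicate 1 of 994.6 mg/kg no gene of these 5 lists passed, and Acsl1, Elovl5 and Abhd5 differed by -0.21, -0.29 and 0.56. In the dose trend, Mpc2, Abhd5 and Plin3 rose, and Acsl5, Scap, Hacd3 and Scd fell, 7 of the 69 genes, beside 6.47% of all genes. Scap, the escort protein that carries SREBP out of the endoplasmic reticulum, fell by 0.07 ± 0.02 per step (limma adjusted p = 0.0477). Scd, which desaturates stearate to oleate, fell by 0.43 ± 0.10 per step (limma adjusted p = 0.0127), and its change at 497.3 mg/kg relative to control was -2.45 ± 0.53 (limma adjusted p = 0.0382). At 994.6 mg/kg its difference was -1.59 ± 0.53 (limma adjusted p = 0.096). These trend genes were singled out after their values were seen.

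For the 4 members called in any comparison, the genes with the most similar pattern over the 20 arrays were listed by Pearson's r, as a description. Dgat2 was closest to Unc45a (r = 0.875), Uroc1 (r = 0.875) and Hspg2 (r = 0.871), and Agpat2 to Retreg2 (r = 0.869), Plbd2 (r = 0.865) and Acbd4 (r = 0.85). Acaca was closest to Mt2A (r = 0.876), Chdh (r = 0.86) and Gys2 (r = 0.854). Lpin1 was closest to Il6r, a subunit of the interleukin-6 receptor (r = 0.956), Ell2 (r = 0.929) and Edem1 (r = 0.914). All of these values come from the same arrays, so array-wide differences are shared between the genes.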

How the data were processed

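The authors summarized each probe set by RMA and deposited the result on the log2 scale, according to the submitters' processing notes. Neither the RMA version nor the set of arrays normalized together is given in the sources used here. Such values are relative to the bulk of all genes on an array. Probe sets took gene symbols from the platform annotation, updated by gene ID: 20826 of 31042 had 1 symbol, 436 had several and 9780 were unnamed here. Where a gene, of 14217, had several probe sets, the one brightest on average over the 20 arrays stood for it. All 20 arrays were fitted together with limma 3.58.1 in R 4.3.3 (lmFit and eBayes), without a filter. A fit of the dose groups, with 14 residual degrees of freedom, compared each dose with control and the highest doses with each other. A separate fit gave a slope over dose steps. P-values were adjusted by Benjamini-Hochberg over all genes, with calls under 0.05. The code was checked on simulated data. Correlations of deviations used 100000 permutations within dose groups. Precision is limited by how many arrays there are, and signal over background was not used.

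The members and gene lists were chosen with earlier results of these data known. Named genes were all members, genes of the other lists called at 994.6 mg/kg or else the 2 with the largest change, and the 3 genes most correlated with each called member. Genes of the other lists named for their trend, and regulators named for an unadjusted p under 0.05, fall outside that rule. They were chosen after their values were seen. Control rats numbered 1 to 5 and treated rats 1 to 3 per dose, taken as separate animals per the labels. Normalization, filtering, probe set choice, array weights, the GAPDH covariate, the groups fitted, the dose scale, a replicate block and each array left out were varied. The lists without replicate 1 of 994.6 mg/kg, the fit with control replicates 1 to 3 only and the differences between a pair of genes within an array were added after the data were seen.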

Additional observations from a re-analysis of the deposited data

How the results depend on the processing

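With 20 arrays, small changes may have gone undetected, and few genes were called at all below 497.3 mg/kg. Under the alternatives other than leaving out 1 array, 293 member values were unchanged in direction and in being called or not. Some of these alternatives also used fewer arrays. Of the rest 13 lost a call, 4 gained one and 5 turned sign. With 1 array left out the counts were 313, 15, 4 and 8. The counts cover all members at 994.6 mg/kg and in the trend, and only some in comparisons that involve 497.3 mg/kg. Most of the unchanged values had no call in either fit. At 994.6 mg/kg Dgat2 kept its call in 19 of 19 alternatives, Agpat2 in 12 and Acaca in 9. In the trend Dgat2 kept it in 31 of 32, Lpin1 in 28 and Acaca in 26. Except for the replicate block below, the cause of lost or gained calls was not tested.

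At 994.6 mg/kg 635 genes were called (356 higher, 279 lower), and 1000 after quantile normalization (478 higher, 522 lower), 2841 with array weights and 450 with the GAPDH covariate (346 higher, 104 lower). The replicate block could be fitted only without control replicates 4 and 5, and gave 310; the same arrays without the block term gave 250. At 497.3 mg/kg 104 became 281 with array weights, 38 both with the block and with its arrays without the block term, and 235 with only these groups fitted. At 248.6 mg/kg 8 became 20 with array weights, 4 with the GAPDH covariate, 5 with control replicates 1 to 3 only and 3 with only these groups. At 124.5 mg/kg 1 became 0 with the mean of all probe sets or array weights. At 62.3 mg/kg limma called 0 (349 genes at an unadjusted p under 0.05), and 1 without the lowest 50% of genes, with the block or with control replicates 1 to 3 only. The trend had 920, with 514 for control replicates 1 to 3 only and 31 among treated arrays only; with the GAPDH covariate 665 rose and 163 fell, against 554 and 366. Between 994.6 and 497.3 mg/kg 3 became 1 with the mean of probe sets, 6 with each probe set, without the lowest 50% or with median centring, 5 with quantile normalization or robust eBayes, and 122 with array weights.

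Acly at 994.6 mg/kg turned to -0.0968 with array weights. The Srebf1 slope turned to 0.0040 with the mean of probe sets, 0.0141 with the block and with control replicates 1 to 3 only, and 0.0421 among treated arrays. The Srebf1 to Acaca correlation turned to 0.0453 without the 2 farthest arrays and 0.0068 with the mean of probe sets. Same-numbered arrays did not deviate together (median correlation 0.03 over 45 pairs, from -0.312 to 0.366), so the numbers were not taken as pairs. With the block and without control replicates 4 and 5, Acaca was 0.61 and Agpat2 -0.36 at 994.6 mg/kg, neither called (limma adjusted p = 0.209 and 0.135), and the Acaca trend was not called (0.116). Without the block term the same arrays gave the same changes and no call either (0.209, 0.141 and 0.113), so removing the controls already ended these calls.

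Leaving out 1 array gave 173 to 684 calls at 994.6 mg/kg, lowest without its replicate 1, 38 to 73 at 497.3, 3 to 9 at 248.6, 0 to 2 at 124.5 and 0 to 1 at 62.3 mg/kg. It gave 592 to 1108 in the trend and 1 to 15 between the highest doses. Acly at 994.6 mg/kg ran from -0.1480 to 0.1519 and the Srebf1 slope from -0.0145 to 0.0170. The Acaca call at 994.6 mg/kg had a limma adjusted p from 0.0518 to 0.107 without 1 control, and its trend 0.0513 and 0.0606 without control replicate 1 or 5 and 0.0936 without replicate 1 of 994.6 mg/kg. Me1 had a called trend without replicate 1 of 62.3 (limma adjusted p = 0.014) or replicate 3 of 497.3 mg/kg (0.0461), and Agpat2 without replicate 1 of 62.3 mg/kg (0.0499). Lpin1 at 994.6 mg/kg was -2.32 with array weights (0.000448).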

Other observations

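Replicate 2 of 62.3 mg/kg had the highest value of all 20 arrays for 4 of the 10 genes, Acly, Lpin1, Dgat1 and Dgat2. Replicate 1 of 994.6 mg/kg had the highest Acaca and Fasn and the lowest Gpam and Agpat2. For Dgat2 its value ranked 18 of 20 from the top, close to the other rats of its dose, and for Lpin1 it ranked 7. The range over all arrays was smallest for Dgat1, at 0.35 on the log2 scale, beside 0.68 for Dgat2.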
